A study of Mus musculus with 4 samples.

Results

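The 8 genes described here handle iron: Fth1 and Ftl1 (the ferritin subunits), Trf (transferrin), Tfrc (the transferrin receptor), Slc40a1 and Slc11a2 (iron transporters), and Aco1 and Ireb2 (the iron regulatory proteins). They were chosen by function, as the rows with these symbols in the count tables, and are 8 of 32531 gene names. All 8 passed the filter on low counts and were among the 16600 genes tested. RNA came from cerebral cortex of adult mice of the Cbln1-TRAP NIDA030 line, whose transgene puts an EGFP-tagged Rpl10a, a ribosomal protein, under Cbln1 regulatory sequence. One group of 2 libraries held RNA bound to ribosomes, immunopurified with anti-EGFP antibodies (IP). The other group of 2 libraries held total RNA of the same kind of tissue (input). Both groups carry the transgene, and the libraries are numbered 2 and 4 in each. Nothing in the labels ties a library to an animal, and p-values therefore cover the spread among libraries, which may be technical.

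Cells hold iron in ferritin, a shell of heavy and light subunits, take it up by binding transferrin to its receptor, and release it through ferroportin, the product of Slc40a1. The iron regulatory proteins bind a short RNA hairpin, the iron-responsive element, when iron is scarce. Bound near the start of a transcript, in the 5′ untranslated region (UTR), they block its translation, and bound in the 3′ UTR of the transferrin receptor they protect the mRNA from decay. In brain, ferritin and transferrin are known to be abundant in oligodendrocytes, the myelin-forming cells, and the transferrin receptor in neurons and in the endothelium of blood vessels.

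The group was checked against the sequence of its transcripts, because the place of the element divides its members. The element was searched for on the transcript strand as CNNNNNCAGTGN, in which the first C is the unpaired bulge, the last 6 letters are the loop, and the 5 bases between them must pair with the 5 bases after the loop, G with T allowed. A looser form allowed 1 unpaired base on the 3′ side of the stem. The paired form was found in the 5′ UTR of Fth1, Ftl1 and Slc40a1 and in the 3′ UTR of Tfrc, which held 4. The looser form was found in the 3′ UTR of 1 isoform of Slc11a2, of 4415 bases, with its loop 44 bases after the stop codon, while the isoform of 3025 bases held no match. No match was found in Trf, Aco1 or Ireb2, which says only that neither form, with its paired stem, is in the annotated protein-coding transcripts searched. Among all protein-coding genes, the paired form occurred in the 5′ UTR of 0.134% of 20890 genes and in the 3′ UTR of 0.605% of 20998 genes. Genes were put in length classes by their longest annotated UTR. Among 6122 genes with a 5′ UTR of 150 to 300 bases, the paired form occurred in 0.131%. In their transcripts of 929 and 968 bases, Fth1 and Ftl1 have such a 5′ UTR. A longer transcript of Fth1 has a 5′ UTR of 795 bases, which puts that gene outside the class. Among 3347 genes with a 3′ UTR of 2000 to 3500 bases, such as that of Tfrc, the paired form occurred in 1.22%. Counting the looser form as well, the shares of genes with a match in the 3′ UTR were 1.7% overall and 3.14% in that length class, which also holds the longer isoform of Slc11a2. The sites are shown 5′ to 3′ from the GENCODE transcripts, with the bulged C and the loop in capitals.
Fth1, 5′ UTR: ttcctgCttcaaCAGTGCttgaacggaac
Ftl1, 5′ UTR: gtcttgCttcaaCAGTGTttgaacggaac
Slc40a1, 5′ UTR: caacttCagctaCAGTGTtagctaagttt
Tfrc, 3′ UTR, the site nearest the stop codon: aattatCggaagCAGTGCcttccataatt
Slc11a2, longer isoform, 3′ UTR, looser form: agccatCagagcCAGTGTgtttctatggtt

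On GRCm38 the Fth1 site lies at chr19:9982732-9982760 on the plus strand, the Ftl1 site at chr7:45459779-45459807 on the minus strand and the Slc40a1 site at chr1:45925465-45925493 on the minus strand. The Tfrc site shown lies at chr16:32631219-32631247 on the plus strand and the Slc11a2 site at chr15:100395152-100395181 on the minus strand. The loops of Fth1, Ftl1 and Slc40a1 start 99, 90 and 102 bases into transcripts of 929, 968 and 3370 bases. In a longer principal transcript of Fth1, of 1494 bases, the loop starts at base 670. In Tfrc the 4 loops start 895, 1274, 1339 and 1386 bases after the stop codon.

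**Figure D1:**
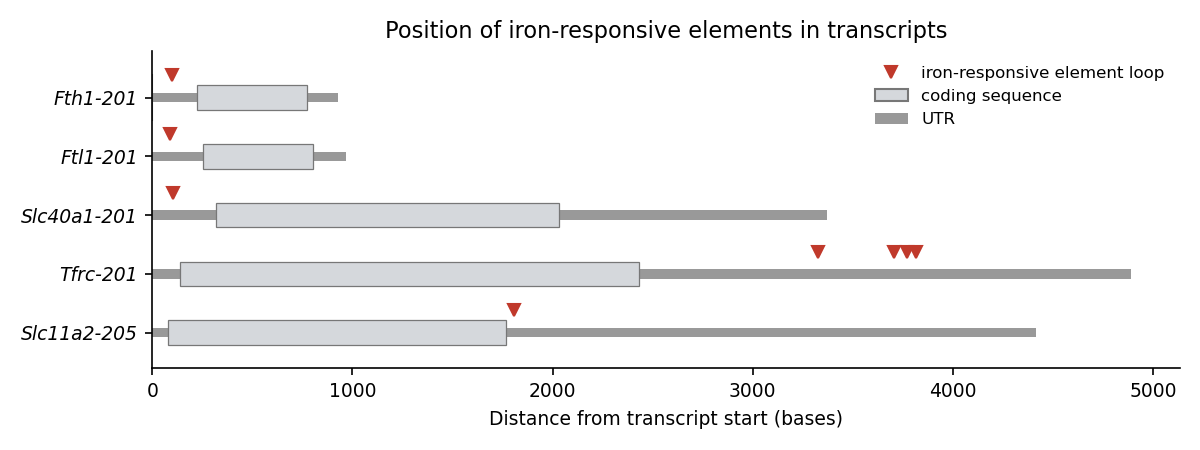
Transcripts drawn to scale in bases from their start, with coding sequence as wide boxes, UTRs as narrow bars, and a triangle at the loop of each iron-responsive element found. Fth1, Ftl1 and Slc40a1 hold 1 element before the coding sequence, and Tfrc holds 4 and the longer isoform of Slc11a2 holds 1 after it.

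The libraries held 39750468 to 47567384 counts assigned to genes, and 3 counts, used as the floor, corresponded to 0.0660 to 0.0789 CPM (counts scaled to a common library total, after TMM scaling by the bulk of genes), which covers counting error only. Cbln1, the source of the promoter of the tag, checked the labels: it was 8.19-fold higher in IP. It stood at 99.3 and 68.6 CPM in IP 2 and IP 4, against 11.9 and 8.55 CPM in input 2 and input 4. The 12 neuronal markers summed to 36670 and 34660 CPM in IP and 15640 and 16210 CPM in input. Most of each sum came from Snap25, at 27036.6 and 25452.5 CPM in IP and 10526.9 and 10907.9 CPM in input. Of the 12 markers 11 rose, or 91.7%, against 23.4% of all genes tested. Because input holds RNA of all cells and IP the ribosome-bound RNA of tagged cells, a difference in which cells contribute and a difference in ribosome binding within a cell cannot be told apart. Nor can fewer cells of a type be told from less RNA per cell. The labels give the IP libraries another lane number than the input libraries, so the groups cannot be told apart from the lanes either.

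Of the 8 iron genes, 3 fell in IP (Fth1, Ftl1 and Tfrc), 2 rose (Trf and Aco1), and 3 did not pass the threshold (Slc40a1, Slc11a2 and Ireb2). A gene was called at a Benjamini-Hochberg adjusted p under 0.05 over all 16600 genes in edgeR's quasi-likelihood test. Of all genes tested, 22.4% were called lower and 23.4% higher in IP, or 45.8% in either direction, so 5 calls among 8 genes is a share not far from that background. The IP and input libraries did not overlap in 7 of the 8 genes, where 73% of all genes tested did not overlap. Both IP libraries lay below both inputs in 4 of them, against 37.8% of all genes, and above in 3, against 35.3%. The median log2 fold change of the 8 genes was -0.28, against -0.04 over all genes. All 3 genes with an element in the 5′ UTR had lower values in both IP libraries than in both input libraries. The 3 genes with no match to the element were those with both IP libraries above the inputs.

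**Figure D2:**
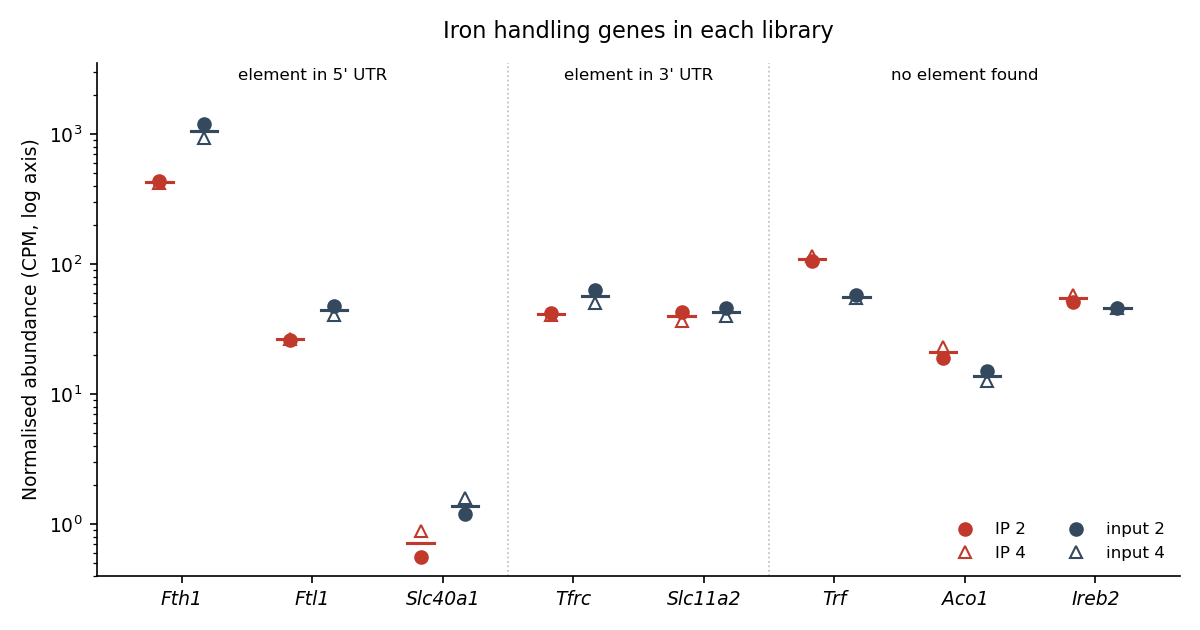
Normalised abundance in CPM on a log axis for the 8 iron handling genes, grouped by where the iron-responsive element was found, with IP left of input, 1 symbol for each library and a bar at the group mean. Fth1, Ftl1, Slc40a1 and Tfrc lie lower in both IP libraries, Trf, Aco1 and Ireb2 lie higher, and Slc11a2 overlaps.

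Fth1, which encodes the ferritin heavy chain that oxidises iron for storage, had the largest difference of the group. Its level was 437 and 417 CPM in IP 2 and IP 4, against 1190 and 934 CPM in input 2 and input 4. Both IP libraries thus stood below the lower input library, and the IP values were close together while the input values lay further apart. Fth1 averaged 427 ± 14.4 CPM over the IP libraries and 1062 ± 181 CPM over the inputs (SD, n = 2 each), and was 2.49-fold lower in IP. The log2 fold change was -1.31 (SE 0.10, edgeR adjusted p = 1.02e-08). Among the 247 most abundant genes (a mean of 500 CPM or more), 15% were called lower in IP, and over all genes tested 10.4% had a lower fold change than Fth1. The gene spans chr19:9980598-9985098 on the plus strand.

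Ftl1, which encodes the ferritin light chain that helps the mineral core to form, fell as well. It stood at 26.2 and 26.5 CPM in IP 2 and IP 4, against 47.4 and 40.5 CPM in input 2 and input 4. The IP libraries were nearly equal and lay below both input libraries. Ftl1 was 1.67-fold lower in IP, or -0.74 as a log2 fold change (SE 0.12, edgeR adjusted p = 7.90e-05). It spans chr7:45457944-45459884 on the minus strand, and an annotated gene on the opposite strand overlaps 26.5% of its exonic bases. Reads that fit several places were not assigned to genes, and 74.8% of the 50-base windows of its transcript, or 60.6% of the 100-base windows, occur in transcripts of other genes. The same shares were 6.59% and 0.964% for Fth1, so the level of Ftl1 is uncertain. How many reads were lost in this way was not measured, and copies outside the annotated transcripts were not searched.

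The ratio of Fth1 to Ftl1 counts also differed between the groups. It was 16.7 and 15.7 in IP 2 and IP 4, against 25.1 and 23.0 in input 2 and input 4, without overlap. Scaling between libraries does not enter such a ratio, but 2 against 2 values cannot give an exact permutation p below 0.33, so it is a description. No other ferritin name held counts: Ftmt, mitochondrial ferritin, and Fthl17, a ferritin heavy chain-like gene, were at 0 in all 4 libraries.

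Slc40a1, which encodes ferroportin, the only known iron exporter of animal cells, was scarce. It had 21 and 38 counts in IP 2 and IP 4, against 54 and 68 counts in input 2 and input 4. Its levels of 0.552 and 0.879 CPM in IP lay below the 1.19 and 1.57 CPM in input, but the difference did not pass (log2 fold change -0.94, SE 0.51, edgeR adjusted p = 0.145). At this depth a standard error of 0.51 leaves its size poorly determined. Slc40a1 spans chr1:45908068-45926523 on the minus strand.

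Tfrc, the receptor that carries transferrin-bound iron into the cell, fell by a small amount. Its level was 42.1 and 40.3 CPM in IP 2 and IP 4, against 62.7 and 49.8 CPM in input 2 and input 4. The IP libraries lay close together and below both input libraries, of which input 2 was the higher. Tfrc was 1.37-fold lower in IP, or -0.45 as a log2 fold change (SE 0.12, edgeR adjusted p = 0.00537). Without input 2 the log2 fold change was -0.27 and did not pass (edgeR adjusted p = 0.167), so the call rests on that library. Tfrc spans chr16:32608920-32632794 on the plus strand. Set against Fth1 within a library, Tfrc counts were 0.0964 and 0.0967 of Fth1 counts in IP and 0.0527 and 0.0533 in input, a ratio 1.82-fold higher in IP.

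Slc11a2, the divalent metal transporter that moves iron out of endosomes, showed no difference beyond the spread. It stood at 42.6 and 36.6 CPM in IP 2 and IP 4, against 45.5 and 40.1 CPM in input 2 and input 4, and the groups overlapped. The log2 fold change was -0.11 (SE 0.12, edgeR adjusted p = 0.474). Scaled by library size alone, which moved the median of all genes by -0.26, it was -0.37 and passed (edgeR adjusted p = 0.0159). Counts per gene do not separate the isoform with the element from the one without it. Slc11a2 spans chr15:100387898-100425072 on the minus strand and shares 6.33% of its exonic bases with Gm5475 on the opposite strand, which held 0 and 7 counts in IP and 0 and 1 in input.

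Trf, the iron carrier of extracellular fluid, was the member with the largest rise. Its level was 105 and 115 CPM in IP 2 and IP 4, against 57.2 and 54.3 CPM in input 2 and input 4. Every IP value stood well above both input values. Trf averaged 110 ± 6.92 CPM over the IP libraries and 55.7 ± 2.09 CPM over the inputs (SD, n = 2 each), and was 1.97-fold higher in IP. The log2 fold change was 0.98 (SE 0.10, edgeR adjusted p = 3.37e-07), and 95.2% of all genes tested had a lower one. Of the 4752 genes with a mean of 20 to 100 CPM, as Trf has, 37.9% were called higher in IP and 21.2% lower. Trf spans chr9:103204001-103230444 on the minus strand, and the annotated gene Gm20425 shares 63.5% of its exonic bases on the same strand. No row of counts carries the name Gm20425, so reads from it would count as Trf or be dropped.

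Trf and its receptor thus lay on opposite sides. Trf counts were 2.49 and 2.85 times Tfrc counts in IP 2 and IP 4, against 0.912 and 1.09 times in input 2 and input 4. Against Fth1 the ratio of Trf counts was 0.240 and 0.275 in IP and 0.0481 and 0.0581 in input, a 4.87-fold difference. Neither pair of ratios overlapped between the groups.

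Aco1, iron regulatory protein 1, is an aconitase of the cytosol when it carries an iron-sulfur cluster and binds RNA when it does not. It stood at 18.8 and 23.1 CPM in IP 2 and IP 4, against 14.96 and 12.7 CPM in input 2 and input 4. The IP libraries were higher, without overlap. Aco1 was 1.52-fold higher in IP, or 0.60 as a log2 fold change (SE 0.16, edgeR adjusted p = 0.00398). With library size alone the log2 fold change was 0.34 and did not pass (edgeR adjusted p = 0.0762). Aco1 spans chr4:40143081-40198338 on the plus strand.

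Ireb2, iron regulatory protein 2, has no aconitase activity and is degraded when iron is plentiful. Its level was 51.1 and 57.6 CPM in IP 2 and IP 4, against 45.7 and 45.6 CPM in input 2 and input 4. The IP libraries were higher, but the difference did not pass (log2 fold change 0.25, SE 0.11, edgeR adjusted p = 0.0728). Leaving out IP 2 gave 0.35, which passed (edgeR adjusted p = 0.0338), and with library size alone it was -0.01 (edgeR adjusted p = 0.96). Ireb2 spans chr9:54863789-54912530 on the plus strand. The ratio of Aco1 to Ireb2 counts was 0.368 and 0.401 in IP and 0.327 and 0.278 in input, higher in both IP libraries.

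**Figure D3:**
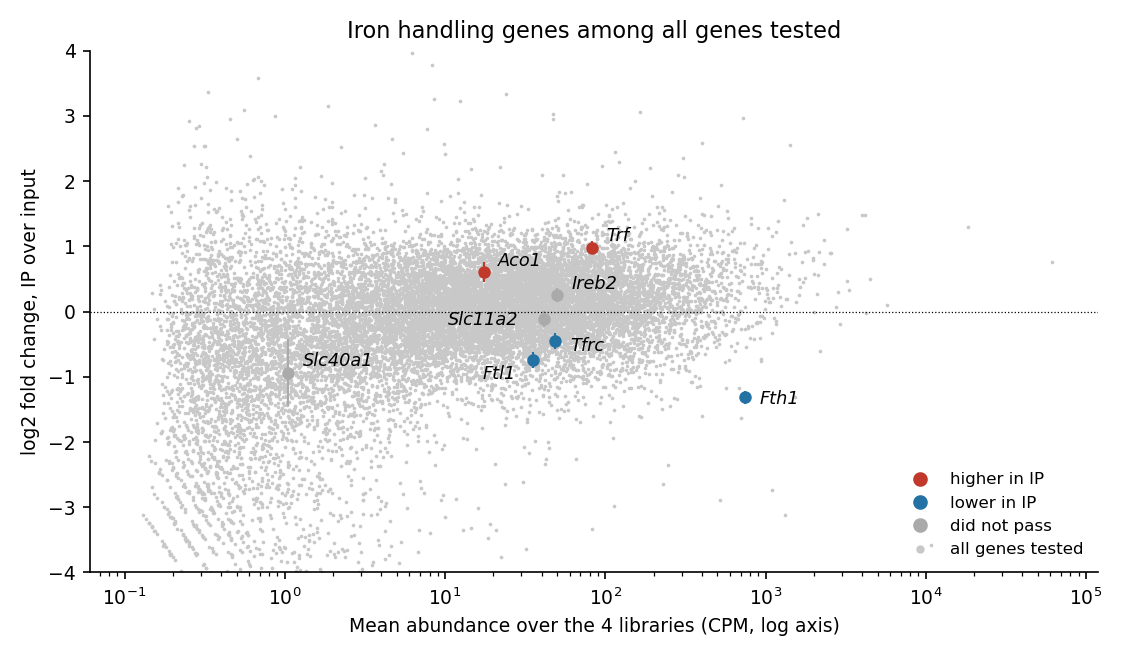
The log2 fold change of IP over input plotted against mean abundance in CPM (log axis) for all genes tested, with the 8 iron genes coloured by call and bars of 1 standard error. Fth1 lies at -1.31 among abundant genes, Trf at 0.98 and Aco1 at 0.60 above most genes. The axis is limited to a log2 fold change of 4 in size, and 275 genes lie beyond it.

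Levels were compared between members as CPM per kilobase of the principal transcript. In IP the order was Fth1 (460 ± 15.5), Trf (42.7 ± 2.69), Ftl1 (27.2 ± 0.239), Slc11a2 (13.1 ± 1.40), Ireb2 (9.42 ± 0.787), Tfrc (8.43 ± 0.265), Aco1 (5.47 ± 0.788) and Slc40a1 (0.212 ± 0.0685; SD, n = 2 each). In input it was Fth1 (1143 ± 195), Ftl1 (45.4 ± 5.03), Trf (21.7 ± 0.812), Slc11a2 (14.2 ± 1.25), Tfrc (11.5 ± 1.87), Ireb2 (7.92 ± 0.0132), Aco1 (3.60 ± 0.424) and Slc40a1 (0.409 ± 0.0804; SD, n = 2 each). The place of Ftl1 in both orders is uncertain, because reads shared with other genes are not in its count. The place of Slc11a2 is uncertain too. Its values use the isoform of 3025 bases, and its counts do not separate this from the isoform of 4415 bases, whose length would give lower values. The values per kilobase of Tfrc and Ireb2 did not overlap in IP, at 8.61 and 8.24 for Tfrc and 8.86 and 9.98 for Ireb2, but their means differed by little more than the spread. With the shorter isoform of Slc11a2, Tfrc and Slc11a2 did not overlap in input, at 12.8 and 10.2 for Tfrc and 15.04 and 13.3 for Slc11a2. They differed by little more than their spread, and their order depends on the isoform used.

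Genes whose transcripts matched the element were counted beside all genes, of which 23.4% rose and 22.4% fell. Outside the 8 genes, 18 tested genes matched the paired form in the 5′ UTR, and 5 of them rose and 7 fell (27.8% and 38.9%), with a median log2 fold change of -0.30. For the paired form in the 3′ UTR, 31 of 107 tested genes outside the group rose and 27 fell (29% and 25.2%, near the shares of all genes), with a median of -0.004, against -0.04 over all genes.

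In the list of 8 other mRNAs reported to carry such elements, 3 rose, 3 fell and 2 did not pass. That is 37.5% in each direction, against 23.4% and 22.4% of all genes, with a median of 0.23. With no filter on low counts, 5 rose. App, the amyloid precursor, rose by 0.64 on the log2 scale (SE 0.08, edgeR adjusted p = 5.34e-06). Alas2, the heme-forming enzyme of red cells, fell with 10 and 18 counts in the IP libraries, against 94 and 63 in the inputs (log2 fold change -2.36, edgeR adjusted p = 0.00160). The hemoglobin genes fell with it: all 3 erythroid markers tested were called lower, against 22.4% of all genes. The erythroid list summed to 2.11 and 3.93 CPM in IP against 10.3 and 12.7 CPM in input. The part of blood cells in the values of Alas2 was not tested. Alas2 and Cdc14a were named after their values were seen. Cdc14a, a phosphatase, and Cdc42bpa, a kinase, fell, with log2 fold changes of -1.32 and -0.31 (edgeR adjusted p = 0.000289 and 0.00756). Without input 4 the value of Cdc42bpa was -0.22 and did not pass (edgeR adjusted p = 0.134).

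Other genes act on ferritin or on the regulatory proteins. Of 7 tested genes of storage and IRP turnover, 5 rose and 1 fell (71.4% and 14.3%, against 23.4% and 22.4% of all genes), with a median of 0.44, and with library size alone 3 rose and 2 fell. Ncoa4, the receptor that delivers ferritin to lysosomes, had 456 and 585 counts in IP 2 and IP 4, against 248 and 295 in input 2 and input 4, or 12.8 ± 1.08 and 6.13 ± 0.961 CPM (SD, n = 2 each). It rose by 1.06 on the log2 scale (SE 0.19, edgeR adjusted p = 0.000155). Pcbp1, a chaperone that loads iron into ferritin, rose by 0.84 (SE 0.10, edgeR adjusted p = 3.10e-06). Fbxl5, the iron-sensing ubiquitin ligase subunit that marks Ireb2 for degradation, fell by 0.53 (SE 0.11, edgeR adjusted p = 0.000807). Skp1a, a subunit of the same kind of ligase, rose by 0.56 (SE 0.10, edgeR adjusted p = 0.000117).

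Among uptake and export genes the share of calls was that of all genes. Of 17 tested, 4 rose and 4 fell (23.5% each, against 23.4% and 22.4% of all genes), with a median of -0.17, and with library size alone 1 rose and 6 fell. Both mitoferrins, the iron importers of mitochondria, fell. Slc25a37 stood at 29.9 and 31.9 CPM in IP 2 and IP 4, against 57.1 and 64.4 CPM in input 2 and input 4 (log2 fold change -0.98, SE 0.12, edgeR adjusted p = 1.59e-06). Slc25a28 fell by 0.88 on that scale (SE 0.15, edgeR adjusted p = 0.000124). Vps35, a subunit of the retromer that recycles receptors from endosomes, rose by 0.86 (SE 0.10, edgeR adjusted p = 1.54e-06). Mcoln1, a lysosomal cation channel, rose by 0.53 (SE 0.13, edgeR adjusted p = 0.00258), and did not pass with library size alone, at 0.28 (edgeR adjusted p = 0.0936). Cp, the ferroxidase ceruloplasmin, was scarce at 2.59 ± 0.426 CPM over the IP libraries and 2.92 ± 0.340 CPM over the inputs (SD, n = 2 each), and did not pass.

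In the hepcidin pathway, which sets the level of ferroportin in the body, 0 of 8 tested genes rose by edgeR and 2 fell. These are 0% and 25%, against 23.4% and 22.4% of all genes, and the median was -0.14. With library size alone 4 fell, and without input 2 1 fell. Bmpr1a, a receptor of bone morphogenetic proteins, fell by 0.84 (SE 0.11, edgeR adjusted p = 8.05e-06). The hepcidin gene Hamp was at 0 in all 4 libraries, below the 3-count floor. Hfe, which binds the transferrin receptor, averaged 0.721 ± 0.387 CPM over the IP libraries and 0.847 ± 0.109 CPM over the inputs (SD, n = 2 each), and did not pass.

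Heme metabolism had the highest median of the 7 lists of other iron genes. Of 17 tested, 11 rose and 1 fell, with a median of 0.56. These are 64.7% and 5.88%, against 23.4% and 22.4% of all genes and 37.9% and 21.2% of genes averaging 20 to 100 CPM. With library size alone 7 rose, and without input 4 also 7, while 1 fell in each case. Alad, which joins the first precursor molecules into a ring, stood at 24.7 and 22.1 CPM in IP 2 and IP 4, against 9.81 and 9.93 CPM in input 2 and input 4. Its log2 fold change was 1.24 (SE 0.15, edgeR adjusted p = 2.09e-06). Urod and Uros, later enzymes of the pathway, rose by 1.17 (SE 0.13, edgeR adjusted p = 7.05e-07) and 0.86 (SE 0.15, edgeR adjusted p = 0.000153). Alas1, the first enzyme of heme synthesis outside red cells, rose by 1.11 (SE 0.13, edgeR adjusted p = 1.06e-06), with an overlapping gene on the opposite strand. The gene that fell was Slc48a1, a heme transporter, named after its value was seen, with a log2 fold change of -0.64.

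Of 26 tested genes of iron-sulfur cluster assembly, 7 rose and 6 fell (26.9% and 23.1%, near the 23.4% and 22.4% of all genes), with a median of 0.17. Without IP 4 2 fell, and without input 2 1 fell. Hspa9, the mitochondrial chaperone that releases clusters from their scaffold, rose by 1.22 on the log2 scale (SE 0.09, edgeR adjusted p = 6.29e-09). Mms19 and Narfl, which hand clusters to proteins of cytosol and nucleus, rose by 1.03 and 0.83 (edgeR adjusted p = 1.41e-05 and 0.00186). Fam96a, which in human cells serves the cluster of iron regulatory protein 1, fell by 0.75 (edgeR adjusted p = 0.000138). Mms19 and Narfl overlap genes on the opposite strand.

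In the list of defence against lipid peroxides, which iron promotes, 6 of 13 tested genes rose and 2 fell. These are 46.2% and 15.4%, against 23.4% and 22.4% of all genes, and the median was 0.37. With library size alone 4 fell, and without IP 2, input 2 or input 4, or by DESeq2, 1 fell. Slc7a11, the cystine transporter, fell by 1.27 (SE 0.12, edgeR adjusted p = 1.29e-07), while its partner chain Slc3a2 rose by 0.85 (SE 0.11, edgeR adjusted p = 3.27e-06). Gss, a glutathione synthesis enzyme, and Dhodh, a mitochondrial dehydrogenase, rose by 0.76 and 0.91 (edgeR adjusted p = 0.000418 and 0.000613). None of the 7 lists was matched for abundance to the genes it was set beside. Of the 4752 genes with a mean of 20 to 100 CPM, 37.9% were called higher in IP and 21.2% lower. Over all 7 lists, 36 of 96 tested genes rose and 19 fell (37.5% and 19.8%, against 23.4% and 22.4% of all genes). The median was 0.26. With library size alone 26 rose and 27 fell, and without input 2 34 rose and 11 fell.

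**Figure D4:**
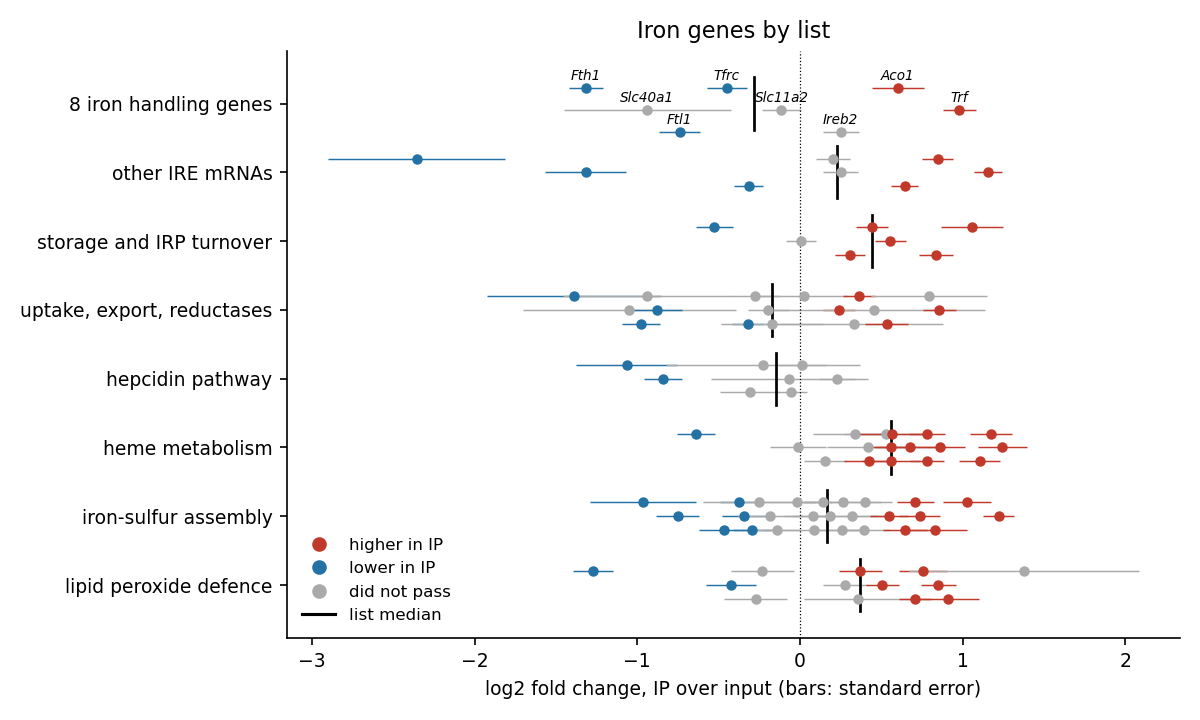
The log2 fold change of IP over input for each tested gene of the 8 iron handling genes and 7 lists of other iron genes, with bars of 1 standard error, coloured by call, and a black line at each list's median. The medians run from -0.28 for the 8 genes to 0.56 for heme metabolism.

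Markers of the cell types in which these genes are abundant were set beside them. Of 16 oligodendrocyte markers 3 rose and 7 fell (18.8% and 43.8%, against 23.4% and 22.4% of all genes), and 11 fell with library size alone. Their median was -0.17, and their sum was 1876 and 1958 CPM in IP against 2327 and 2216 CPM in input. Mbp, a main protein of myelin, fell by 0.63 on the log2 scale (edgeR adjusted p = 1.12e-05). The 3 that rose, named after their values were seen, were Cnp, Mag and Car2, by 0.79, 0.74 and 0.43. The summed oligodendrocyte level thus went the same way as Fth1 and the opposite way to Trf. Of 12 microglial markers 1 rose and 3 fell (8.33% and 25%, the latter near the 22.4% of all genes). Their sum was 77.1 and 84.5 CPM in IP and 88.1 and 77.4 CPM in input, which overlapped. Of the most abundant microglial markers Csf1r rose by 0.75 (edgeR adjusted p = 0.000875) and Ctss had a value of 0.09 (edgeR adjusted p = 0.71). The 3 that fell, named after their values were seen, were Tyrobp, Tmem119 and P2ry12, with log2 fold changes of -1.87, -0.98 and -0.55.

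Over all genes tested 23.4% rose and 22.4% fell, beside which the counts of markers here stand. Of 10 endothelial markers 2 rose and 0 fell, and their sum was 75.8 and 69.3 CPM in IP against 63.2 and 47.2 CPM in input. The median log2 fold change of the list was -0.09, and 5 of the 10 markers had a negative one, none of which passed by edgeR. Most of the sum came from Slc2a1, at 55.2 ± 1.90 CPM over the IP libraries and 38.5 ± 5.90 CPM over the inputs (SD, n = 2 each). Slc2a1, the glucose transporter of the blood-brain barrier, rose by 0.52 (edgeR adjusted p = 0.00178), and stood at 0.26 with library size alone (edgeR adjusted p = 0.0842). Itm2a, 1 of those 2, overlapped between the groups and did not pass by DESeq2, without IP 2 or without input 4, and with library size alone 0 rose and 2 fell. Choroid plexus, another source of transferrin, had 1 marker that rose and 2 that fell of 6 tested (1 that fell without IP 2, input 2 or input 4). Folr1 was below the floor in all 4 libraries, with 0 and 0 counts in IP and 2 and 1 in input. Its summed level of 247 and 281 CPM in IP and 151 and 163 CPM in input came almost wholly from Enpp2, which is also made by oligodendrocytes and rose by 0.80 (edgeR adjusted p = 2.00e-06). Of 10 astrocyte markers 3 rose and 5 fell (3 fell without IP 2 or without input 4), and their sum was 2835 and 2972 CPM in IP against 3499 and 3595 CPM in input. Slc1a2, the glutamate transporter, fell by 0.61 and Aldoc, an aldolase, rose by 0.81 (edgeR adjusted p = 5.99e-06 and 6.16e-07). The part of these cell types in the values of the iron genes was not tested.

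**Figure D5:**
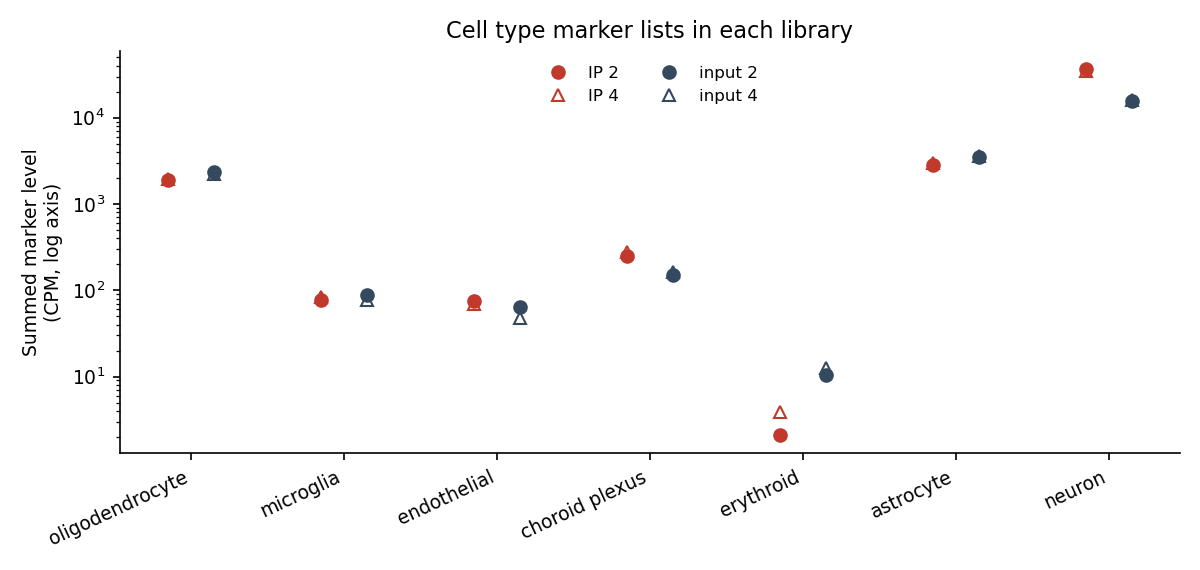
Summed level of each cell type marker list in CPM on a log axis, with IP left of input and 1 symbol for each library. The neuronal sum is higher in IP, the oligodendrocyte, astrocyte and erythroid sums are lower in IP, and the microglial sums overlap.

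The genes with the most similar pattern over the 4 libraries were found by the distance between log2 CPM profiles centred on their means, among genes averaging 50 CPM or more. Nearest to Fth1 were Spop, an adaptor of a ubiquitin ligase, and Lrp1b, a lipoprotein receptor-related gene, at distances of 0.177 and 0.183. Trf was followed most closely by Fam131a and by Dync1li1, a chain of the dynein motor, at 0.0309 and 0.0333. For Tfrc they were Fis1, a mitochondrial fission gene, and Sytl2, a synaptotagmin-like gene, at 0.0641 and 0.119. With 4 libraries in 2 groups, such likeness mostly means a similar fold change.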

How the data were processed

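Tagged polysomes were immunopurified from cortex homogenate, per the labels' protocols. The tools were HTSeq and STAR 2.0.0e with build mm10, per the submitters' processing notes. The strand setting and annotation were not given in the sources used here. Values deposited by the authors are raw counts per gene symbol, 1 file per library. The 6 lines without a gene name stayed out of library sizes and tests. Reads without a unique alignment were 37.0%, 38.0%, 32.1% and 30.7% of records in IP 2, IP 4, input 2 and input 4. In the same order, reads outside annotated features were 7.31%, 7.54%, 14.9% and 13.5%, and reads ambiguous between genes were 1.54%, 1.54%, 5.07% and 5.09%. The ambiguous reads could include reads of Slc11a2, whose overlapping gene Gm5475 has a row of counts. The genes found to overlap Trf and Ftl1 have no row under their names.

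IP was tested against input with edgeR 4.0.16 (TMM, filterByExpr with minimum count 10 and total 15, quasi-likelihood test, two-sided, Benjamini-Hochberg) in R 4.3.3; the standard error is the log2 coefficient over the square root of F. Replicates differed beyond sampling noise (chi-square per degree of freedom 21.2 and 14.5 for IP and input). Transcripts, coordinates and overlaps came from GENCODE vM21 on GRCm38, the same assembly as mm10, which matched 23155 of 32531 names by symbol and 767 through a synonym. The method was tested on simulated data.

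The members and lists were chosen with earlier results of these data known. Named genes were the 8 members, up to 4 called genes with the largest change per iron list at a mean of at least 5 CPM, the 2 most abundant markers per cell type, and a few regulators always named; a few of these are not reported here. Alternatives were DESeq2 1.42.0, other scalings, other filters, a replicate block and leaving out each library.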

Additional observations from a re-analysis of the deposited data

How the results depend on the processing

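Fth1, Ftl1 and Trf kept their direction and call under all 10 alternatives run. Scaling by library size alone gave 2153 genes higher and 5902 lower in IP, against 3886 and 3719, and log2 fold changes of -0.37 for Slc11a2 (now called), 0.34 for Aco1 (no longer called) and -0.0078 for Ireb2; that scaling moves all genes by -0.26. Leaving out 1 library at a time gave -0.60 to -0.27 for Tfrc, -0.21 to 0.0021 for Slc11a2 and 0.17 to 0.35 for Ireb2. It gave 11 to 15 other iron genes lower and 31 to 37 higher, 2670 to 3421 of all genes lower and 3323 to 3720 higher. With 1 library left in a group, it is assumed to vary like the other group. Of 48 other named genes, 39 kept direction and call throughout and 3 turned round, none of them called: Ctss to -0.17 with library size alone and -0.14 to 0.39 without 1 library, Cp (-0.34 to 0.0012) and Hfe (-0.91 to 0.25) without IP 2. The causes were not tested.

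With the replicate number as a block, 4314 genes were higher and 4037 lower, and Ireb2 passed at 0.25 (edgeR adjusted p = 0.0322); the block changed no other member's call, and gave 5 higher in the list of other mRNAs with elements (3 without it) and 1 in the hepcidin list (0 without it). Same-numbered deviations correlated at 0.189 across genes, but with 2 pairs and no statement in the labels the numbers are not taken to pair the samples. Depth limits Slc40a1 most, at 21 to 68 counts.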
